A study of Homo sapiens with 18 samples.

Results

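The genes described here encode 8 proteins of striated muscle: the troponins TNNT1, TNNT2, TNNT3, TNNI1 and TNNC1, the myomesins MYOM1 and MYOM2, and desmin (DES). They were taken as every probe set assigned to exactly 1 of these gene symbols, which gave 9 of the 20374 single-gene probe sets and 8 of the 12750 genes measured. TNNT1 and MYOM2 were chosen by their measured values, which were higher in resistant than in parental TC32 cells. Their values in the TC32 groups are therefore a description and were not tested, and the other 6 genes were treated alike. The comparison of TC32 with TC71 after 72 h uses TC32 arrays that were in view when the genes were chosen, so it is a description too.

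The study used TC32 and TC71, established human cell lines of Ewing sarcoma, a tumour driven by the fusion transcription factor EWS-FLI1 and not made of muscle cells. It compared cells that had acquired resistance to YK-4-279, a small molecule made to keep EWS-FLI1 from its partner protein RNA helicase A, with cells exposed to it briefly and with untreated parental cells. Each line gave 3 arrays of resistant clones selected in doses raised up to 3 µM over 7 months (C1, C4 and CP in TC32, and C3, C4A and C5 in TC71), 3 arrays of parental cells given 3 µM for 72 h, and 3 arrays of parental cells, 18 in all. Each clone was measured on 1 array, untreated cells kept in culture for 7 months were not among the groups, and the labels neither say whether the compound was still present when clones were harvested nor whether arrays of a group came from separate cultures. The spread within a group of clones therefore includes differences between clones. In the parental and 72 h groups it is that between arrays and may be technical. The main model pools the spread of all groups, so its p-values rest on a mixture of these kinds of spread.

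In a striated muscle fibre the sarcomere shortens as myosin of the thick filament pulls on actin of the thin filament. The troponin complex on the thin filament makes this depend on calcium: troponin C (here TNNC1, of slow and cardiac muscle) binds calcium, troponin I (TNNI1, of slow muscle) holds back the actin-myosin contact, and troponin T (TNNT1 of slow, TNNT2 of cardiac and TNNT3 of fast muscle) ties the complex to tropomyosin. Myomesins (MYOM1 and MYOM2) cross-link thick filaments at the M-band, and desmin is the muscle intermediate filament that links Z-discs to each other and to the cell membrane.

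Promoter windows of 300 bases, running from 250 bases before to 50 bases after the RefSeq start on GRCh38.p14, were available for 3 of the 8 genes, all of them on the minus strand. They are shown because the first belongs to a gene that varied by several log2 units, while the other pair belongs to its cardiac counterpart and to a myomesin that stayed flat. TNNT1 lies at chr19:55149157-55149456, TNNT2 at chr1:201377631-201377930 and MYOM1 at chr18:3219919-3220218. Capitals mark the letters CANNTG, an E-box as bound by MyoD-type factors, and CATTCC, the MCAT element bound by TEAD factors, on either strand where they occur.
TNNT1 promoter: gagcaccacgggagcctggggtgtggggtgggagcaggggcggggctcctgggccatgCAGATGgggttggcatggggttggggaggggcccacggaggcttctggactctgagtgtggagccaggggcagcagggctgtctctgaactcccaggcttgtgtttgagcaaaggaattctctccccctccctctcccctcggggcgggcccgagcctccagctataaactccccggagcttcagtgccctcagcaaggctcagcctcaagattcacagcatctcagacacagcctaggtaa
TNNT2 promoter: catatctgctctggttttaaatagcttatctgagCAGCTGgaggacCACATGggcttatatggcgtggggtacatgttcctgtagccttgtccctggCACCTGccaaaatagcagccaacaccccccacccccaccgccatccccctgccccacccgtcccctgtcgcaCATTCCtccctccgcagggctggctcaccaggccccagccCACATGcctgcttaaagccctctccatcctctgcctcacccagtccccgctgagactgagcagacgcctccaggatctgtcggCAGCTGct
MYOM1 promoter: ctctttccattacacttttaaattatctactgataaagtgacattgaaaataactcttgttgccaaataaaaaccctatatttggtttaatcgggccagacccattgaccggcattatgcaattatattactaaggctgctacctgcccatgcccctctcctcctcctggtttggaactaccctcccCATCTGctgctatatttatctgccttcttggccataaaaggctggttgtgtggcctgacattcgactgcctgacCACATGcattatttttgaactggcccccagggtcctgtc
The TNNT1 window held 1 CANNTG and 0 CATTCC, the TNNT2 window 5 CANNTG and 1 CATTCC, and the MYOM1 window 2 CANNTG. Of all 35116 promoter windows in the table, 68.7% held CANNTG and 14.0% held CATTCC. The core of ETS-family sites, GGAA, as read by FLI1, occurred 1, 2 and 2 times in the windows of TNNT1, TNNT2 and MYOM1 and in 95.5% of all windows, and it overlaps CATTCC, which contains its reverse complement. The GGAAGGAA repeat occurred in 0 of these 3 windows and in 3.67% of all windows. A CArG box, the element read by serum response factor, was found in the MYOM1 window alone among the 3, against 1.29% of all windows. A match is a description of letters and not a site in use.

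All values below are log2 values relative to each probe set's own median over the 18 arrays, so 0 is the middle array of that probe set and levels cannot be set against each other between genes. A pair of parental arrays stood apart from their groups over the 3317 most variable probe sets: replicate 1 of parental TC32 was nearest to replicate 1 of parental TC71, and replicate 2 of parental TC71 was nearest to replicate 1 of TC71 after 72 h. Replicate 2 of TC71 after 72 h was nearest to its own group but far from it. Its smallest root mean square difference was 0.903, against 0.282 between replicates 1 and 3 of that group. TC32 clone C1 was nearest to replicate 1 of parental TC32, TC71 clones C3 and C5 to replicate 2 of parental TC71, and clone C4A to replicate 1 of TC71 after 72 h. Differences and correlations of TNNT1 and MYOM2 that rest on replicate 1 of parental TC32 are given with and without it. As a bulk measure, fewer cells with a transcript and less RNA per cell cannot be told apart.

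The 8 genes fell into a pair that varied widely and 6 that hardly varied. TNNT1 had a standard deviation (SD) of 2.81 over the 18 arrays, higher than in 99.84% of all genes, and MYOM2 had an SD of 2.12, higher than in 99.52%. The SDs of the other 6 lay between 0.0117 for TNNT3 and 0.0425 for DES. Both variable genes were low in TC32 cells that had not been selected for resistance and were near or above 0 in most of the other arrays.

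TNNT1, slow skeletal troponin T, was measured by 1 probe set at chr19:55644198-55660574 on the minus strand in band 19q13.42, in the coordinates that the array annotation gives without naming a build. Its values were 0.30, 1.88 and 1.56 in TC32 clones C1, C4 and CP, -5.99, -6.06 and -4.87 in TC32 after 72 h, and -1.72, -5.28 and -5.45 in parental TC32. All 3 clones lay above all 6 TC32 arrays of the other groups, and replicate 1 of parental TC32 lay far above the other parental arrays and above the 72 h arrays. In TC71 its values were 0.57, 1.36 and 0.31 in clones C3, C4A and C5, 0.32, 0.02 and 0.12 after 72 h, and -0.52, -0.33 and -0.02 in parental cells. The TC71 clones and the 72 h arrays both lay above all 3 parental TC71 arrays, and clone C5 lay level with the highest 72 h array. The TNNT1 group means were, from high to low, 1.25 ± 0.83 in TC32 clones, 0.75 ± 0.55 in TC71 clones, 0.15 ± 0.15 in TC71 after 72 h, -0.29 ± 0.25 in parental TC71, -4.15 ± 2.11 in parental TC32 and -5.64 ± 0.67 in TC32 after 72 h (SD, n = 3 each). Neighbours in that order overlapped, with 2 exceptions: TC71 after 72 h lay above parental TC71, and parental TC71 lay above parental TC32.

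MYOM2, the myomesin of fast muscle and heart, was measured by 1 probe set at chr8:1993247-2093379 in band 8p23.3. Its values were 0.41, 2.18 and 2.71 in TC32 clones C1, C4 and CP, -4.49, -3.40 and -3.79 in TC32 after 72 h, and -1.82, -2.74 and -3.25 in parental TC32. The 3 TC32 groups did not overlap, with clone C1 the lowest clone and replicate 1 the highest parental array, as for TNNT1. In TC71 its values were -1.42, 1.08 and -0.14 in clones C3, C4A and C5, 0.72, -0.05 and 0.82 after 72 h, and 0.05, 0.54 and 0.52 in parental cells. The TC71 clones spread widely and overlapped both other TC71 groups. The MYOM2 group means were 1.77 ± 1.20 in TC32 clones, 0.50 ± 0.48 in TC71 after 72 h, 0.37 ± 0.28 in parental TC71, -0.16 ± 1.25 in TC71 clones, -2.60 ± 0.72 in parental TC32 and -3.90 ± 0.55 in TC32 after 72 h (SD, n = 3 each). Neighbours among the 4 highest means overlapped, the lowest TC71 clone lay above the highest parental TC32 array, and parental TC32 lay above TC32 after 72 h.

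**Figure D1:**
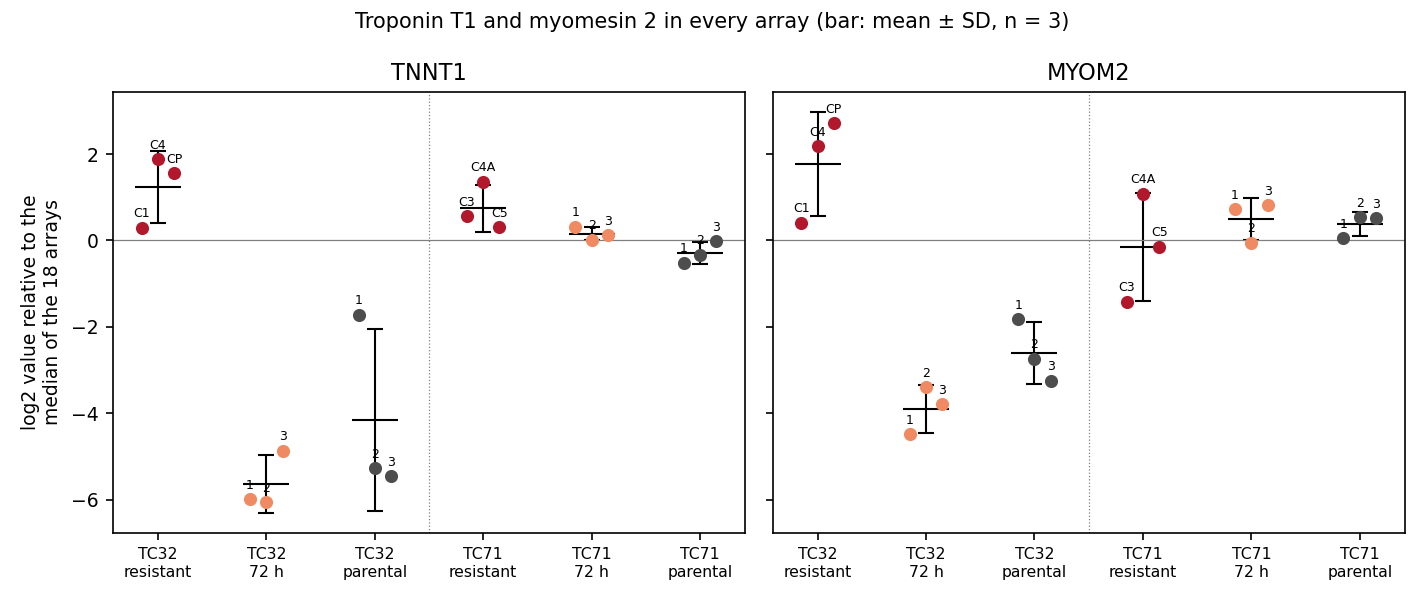
TNNT1 and MYOM2 on each of the 18 arrays (vertical axis, log2 relative to the probe set's median), by group, with a bar for the mean of 3 arrays. The 6 arrays of TC32 after 72 h and of parental TC32 lie at -1.72 or lower for TNNT1 and at -1.82 or lower for MYOM2, below all 12 others.

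The TC32 differences, which helped choose these genes, are given without a test. TNNT1 was 5.40 higher on the log2 scale in TC32 clones than in parental TC32, 6.88 higher than after 72 h, and after 72 h it stood at -1.49 relative to parental cells. Without replicate 1 of parental TC32, the first of these was 6.61 and the last -0.27. MYOM2 was 4.37 higher in TC32 clones than in parental TC32, 5.67 higher than after 72 h, and after 72 h it stood at -1.29 relative to parental cells. Without replicate 1 of parental TC32 these were 4.76 for clones and -0.90 for 72 h. The change after 72 h was thus small for TNNT1 once that array was left out. Of the 8 genes, 2 differed by at least 1 log2 unit between TC32 clones and parental TC32, against 5.65% of all genes, and 2 did so between 72 h and parental TC32, against 3.04%. Between TC32 clones and TC32 after 72 h the same count was 2, against 7.88%. The comparisons of one line share arrays, so their differences are not independent of each other.

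After 72 h TNNT1 stood lower in TC32 than in TC71, at a difference of -5.79 on the log2 scale (SE 0.79), and MYOM2 at one of -4.39 (SE 0.66). For both genes all 3 TC32 arrays lay below all 3 TC71 arrays. Of the 8 genes, these 2 were under an adjusted p of 0.05, against 6.57% of all genes and 3.23% for lower values alone. Nothing is read from that count or from the lack of overlap, whose share over all genes is not given.

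The TC71 groups were compared with limma's moderated test, with Benjamini-Hochberg adjustment over all 12750 genes and a threshold of 0.05. In TC71 none of the 8 genes passed the test in any of 3 comparisons. Of all genes, 1.09% passed between clones and parental TC71, 0.149% between 72 h and parental TC71, and 2.5% between clones and 72 h. At an unadjusted p under 0.05 the counts of members were 1, 0 and 0 by limma, the 1 being DES. The DES change was -0.076, and -0.036 without replicate 2 of parental TC71, the array that stood apart. The share of all genes at that limit is not given, and nothing is read from these counts. TNNT1 in TC71 clones differed from parental TC71 by 1.04 (SE 0.79, 95% interval -0.67 to 2.74, adjusted p = 0.735 by limma). All 3 clones lay above all 3 parental arrays, as was so for 5.72% of all genes. After 72 h in TC71 TNNT1 differed by 0.44 from parental cells (95% interval -1.26 to 2.15, adjusted p = 0.9997 by limma), again without overlap, as for 13.3% of all genes in that direction. MYOM2 in TC71 clones differed from parental TC71 by -0.53 (95% interval -1.95 to 0.89, adjusted p = 0.815 by limma), by 0.10 without clone C3 and by -1.15 without clone C4A. After 72 h the MYOM2 difference in TC71 was 0.13 (95% interval -1.30 to 1.55, adjusted p = 0.9997 by limma). Between TC71 clones and TC71 after 72 h, TNNT1 differed by 0.60 (95% interval -1.11 to 2.30) and MYOM2 by -0.66 (95% interval -2.08 to 0.76), with adjusted p of 0.687 and 0.639 by limma. The spread that limma assigns to a gene is pooled over 6 groups. It mixes differences between clones with those between replicate arrays and includes the wide parental TC32 arrays. Each of these TC71 intervals reaches beyond 1 log2 unit in at least 1 direction.

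**Figure D2:**
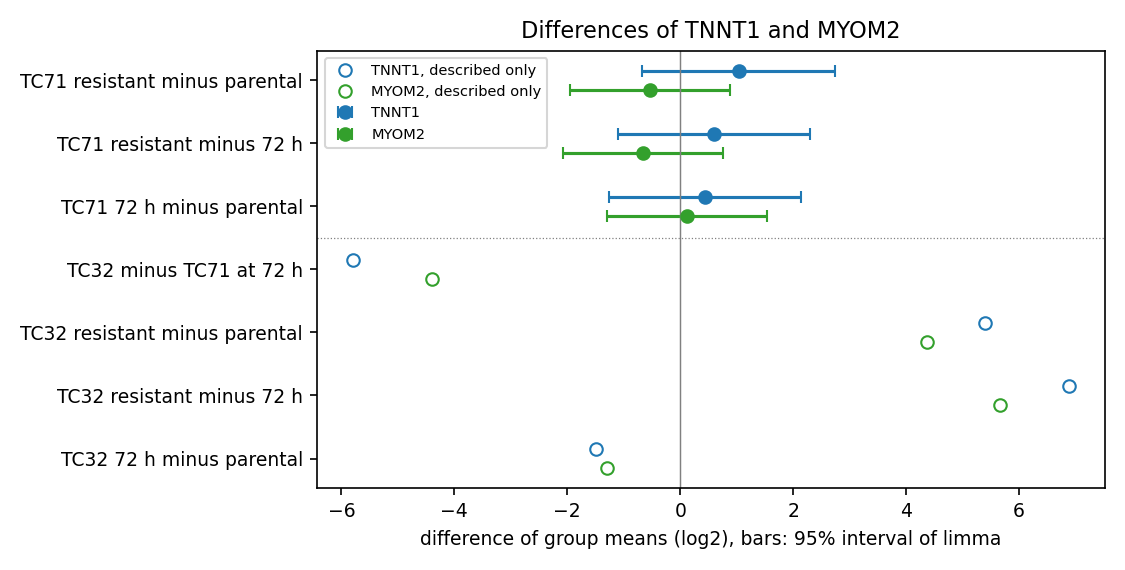
Log2 differences of group means of TNNT1 and MYOM2 (horizontal axis) in 7 comparisons: filled points with 95% intervals from limma where tested, open points without intervals where described only. The TC71 intervals all include 0, TC32 against TC71 after 72 h lies at -5.79 and -4.39, and TC32 clones against parental TC32 lie at 5.40 and 4.37.

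The pair shared its split between arrays with few other genes. Of the 12750 genes, 36 (0.282%) were lower in all 6 arrays of unselected TC32 (after 72 h and parental) than in all 12 other arrays, 35 were higher, and 11 were lower by a mean of at least 1 log2 unit. TNNT1 had the widest gap between the means of the 12 and the 6 arrays, 5.36, and MYOM2 the next, 3.87, ahead of the transcription cofactor LBH at 2.55, the collagen receptor DDR2 at 2.16 and the receptor kinase ALK at 2.02. The split follows the labels but was drawn with the TNNT1 and MYOM2 values known, so it is a description.

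Over the 18 arrays TNNT1 and MYOM2 had a Pearson correlation of 0.932. Both genes were chosen for higher values in resistant than in parental TC32, so a high value over all arrays is partly set by that choice. The arrays fall into 2 clusters, so the value was also taken within each: it was 0.794 over the 6 arrays of unselected TC32 and 0.646 over the 12 others. The first of these rests on replicate 1 of parental TC32: without it the correlation was 0.324 over 5 arrays, an alternative chosen after seeing the data. Over the 9 TC71 arrays it was 0.0927, where clone C3 was low for MYOM2 and not for TNNT1. Among 1793 other genes with an SD of at least 0.5, the closest in pattern to TNNT1 were CDH11, a cadherin of mesenchymal cells, at 0.978, RNF144A, a ubiquitin ligase, at 0.968, and YPEL5 at 0.965, with MYOM2 at rank 8. For MYOM2 the closest were TNNT1, then CDH11 at 0.911 and RNF144A at 0.904. Within the 12 arrays outside unselected TC32 these were 0.686, 0.654 and 0.700 for TNNT1 with CDH11, RNF144A and YPEL5, and at 0.474 for MYOM2 with both CDH11 and RNF144A. Within the 6 arrays of unselected TC32 they were 0.979, 0.959 and 0.902 for TNNT1, and 0.871 and 0.762 for MYOM2 with CDH11 and RNF144A. Over the 5 of these left without replicate 1 of parental TC32 they were 0.679, -0.537 and -0.250 for TNNT1, and 0.905 and -0.424 for MYOM2. The points share line and treatment. CDH11 averaged 0.35 in TC32 clones, -2.42 in TC32 after 72 h and -1.52 in parental TC32, where the highest parental array stood at -0.28, while the TC71 means were 0.28 in clones, 0.27 after 72 h and -0.21 in parental cells.

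**Figure D3:**
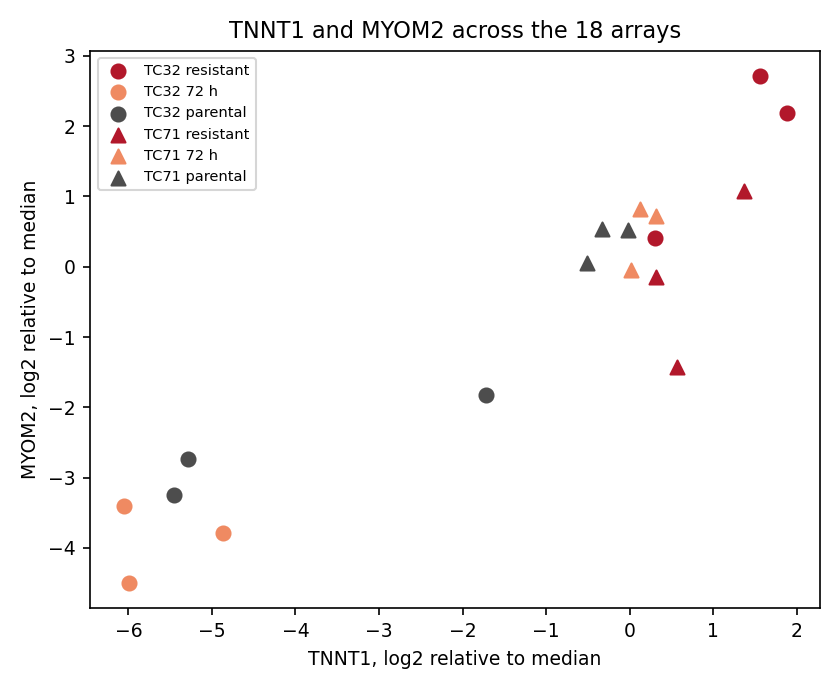
MYOM2 against TNNT1 (both log2 relative to the probe set's median), 1 point per array. Of the 6 arrays of unselected TC32, 5 lie together at low values of both genes, and replicate 1 of parental TC32 lies between them and the other 12.

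Of the troponins other than TNNT1, cardiac troponin T (TNNT2, chr1:201328151-201342399) ran from -0.065 to 0.059 over the 18 arrays and fast troponin T (TNNT3, chr11:1944092-1959934) from -0.014 to 0.029. Slow troponin I (TNNI1, chr1:201378205-201390856) ran from -0.046 to 0.047 and slow and cardiac troponin C (TNNC1, chr3:52485258-52488035) from -0.032 to 0.037. These are the proteins with which TNNT1 forms the slow-muscle troponin complex, or its counterparts in other muscle types. MYOM1 (chr18:3066805-3193952), the other myomesin of the 8, ran from -0.018 to 0.030. DES ran from -0.040 to 0.124 as the mean of 2 probe sets. One of these, at chr2:220283104-220291441, lies on the plus strand and gave the highest DES value, 0.26, in replicate 2 of parental TC71, the array that stood apart. The other has a partial alignment on the opposite strand at chr2:220284857-220291454 and another at chr13:43647904-43648799, so its values may not come from DES. A further probe set, shared by DES and FAM48A, was left out and ran from -0.28 to 0.39.

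Such flatness was common on these arrays: 4004 of the 12750 genes (31.4%) had an SD under 0.05. The flat members moved from array to array with that flat fraction, as TNNT2, TNNT3, TNNI1, TNNC1, MYOM1 and DES had correlations of 0.873, 0.986, 0.933, 0.974, 0.972 and 0.653 with the per-array median of all flat probe sets (18 arrays, a description). In TC71 clones all 6 lay below all 3 parental TC71 arrays, by 0.0096 for MYOM1 to 0.076 for DES, as did 35.5% of all genes. The values carry no absolute level, so a flat gene may be unexpressed in all arrays or expressed evenly, and the files do not tell these apart.

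**Figure D4:**
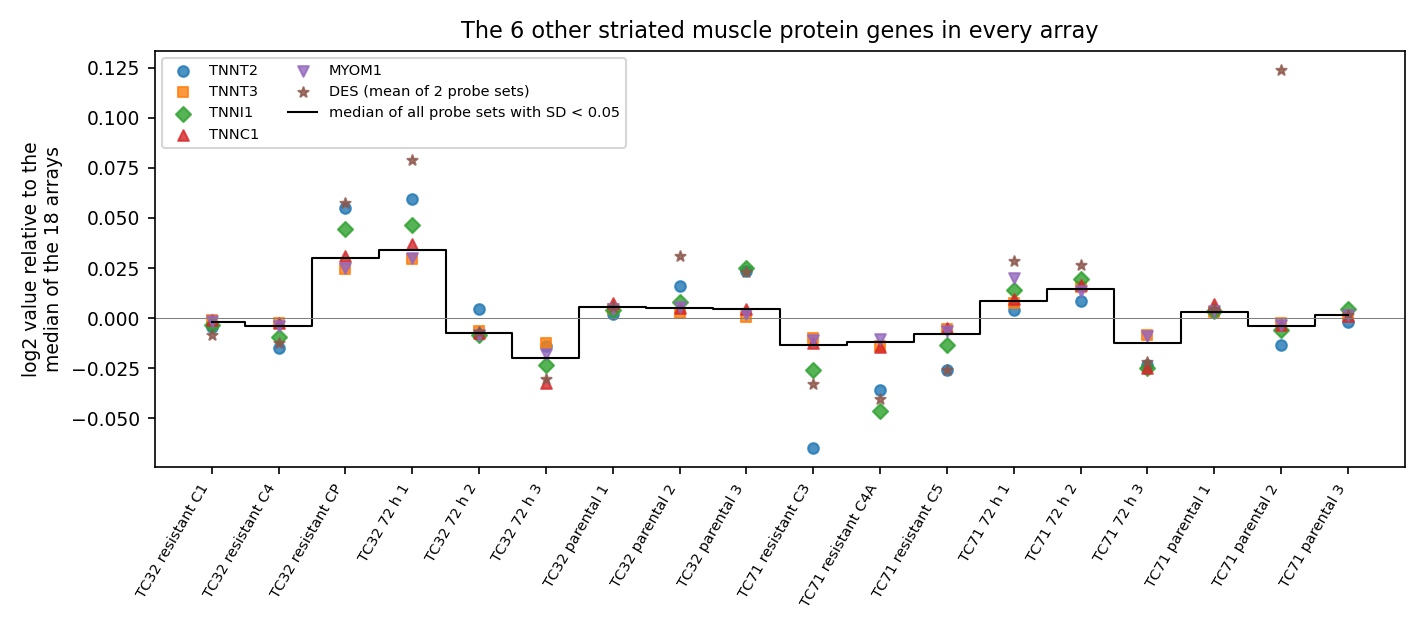
The 6 flat genes on each of the 18 arrays (vertical axis, log2 relative to the median, an axis that spans a small part of that used for TNNT1 and MYOM2), with the median of all flat probe sets. The 6 follow that median, and the highest value, 0.124, is DES in replicate 2 of parental TC71.

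Most chromosomal neighbours of TNNT1 were flat. Troponin I and T genes lie in pairs, and TNNI3, cardiac troponin I, has no protein-coding gene between itself and TNNT1, yet its SD was 0.0168, against 2.81 for TNNT1. Of the 5 nearest measured genes on each side of TNNT1, 8 of 10 were flat, against 31.4% of all genes. The differences of these 10 between TC32 clones and parental TC32 lay between 0.0026 and 0.53. None passed the test (lowest adjusted p = 0.195 by limma), against 6.31% of all genes. In TC32 against TC71 after 72 h 1 of the 10 passed, against 6.57% of all genes. It was HSPBP1, a regulator of the chaperone HSP70, with a change of -0.86 (adjusted p = 0.0414 by limma). Of the 10 neighbours of MYOM2, 5 were flat, their differences between TC32 clones and parental TC32 lay between -0.17 and 0.43, and none passed (lowest adjusted p = 0.208 by limma). At 72 h the adjacent gene KBTBD11 had a change of -1.82 in TC32 against TC71 (adjusted p = 0.0390 by limma), the same direction as MYOM2. The partner genes TNNI2 and TNNC2 of fast muscle ran from -0.021 to 0.039 and from -0.018 to 0.031 over the 18 arrays.

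Other genes of striated muscle were looked at through 5 lists: thick filament and M-band, thin filament, Z-disc and costamere, excitation and calcium handling, and muscle energy metabolism. They were made with results of these data known. Together 84 of their 90 genes were measured, and 60 of the 84 were flat: 14 of 19 for thick filament and M-band, 7 of 10 for thin filament, 16 of 26 for Z-disc and costamere, 15 of 18 for excitation and 8 of 11 for energy metabolism. In TC32 clones against parental TC32, 0 rose and 1 fell (of all genes 6.31% passed), with a median change of 0.0029. In TC71 clones against parental TC71 0 passed (4 had an unadjusted p under 0.05 by limma), with 1.09% of all genes passing. After 72 h, 1 rose in TC32 (2.2% of all genes passed). In TC71 after 72 h 0 passed by limma and 0 had an unadjusted p under 0.05, with 0.149% of all genes passing. In TC32 clones against TC32 after 72 h 2 rose and 3 fell, with 14.8% of all genes passing. FHL2, an adaptor of focal contacts and Z-discs, rose by 2.98 (adjusted p = 0.0469), and TPM2, a tropomyosin to which troponin T binds, by 0.83 (adjusted p = 0.0166, both by limma). FHL2 passed in 11 of 27 alternatives, with a highest adjusted p of 0.154 by limma. TPM2 passed in 24 of 28, and did not without probe sets ending in _x_at or _s_at (adjusted p = 0.0847 by limma). Those that fell were ENO3, described next (change -1.52, adjusted p = 0.00052), the calcineurin-binding MYOZ1 of the Z-disc (change -0.90, adjusted p = 0.0478) and the muscle protease CAPN3 (change -0.54, adjusted p = 0.0224, all by limma). MYOZ1 passed in 7 of 28 alternatives, with a highest adjusted p of 0.215 by limma, and CAPN3 in 24 of 27. Against parental TC32, MYOZ1 stood at a change of -0.0066 in clones and 0.89 after 72 h. CAPN3 stood at -0.093 and 0.44, and none of these changes passed. The clones thus lay near parental TC32 for both genes, and the 72 h arrays lay higher. In TC32 against TC71 after 72 h 2 were higher and 0 were lower, with 6.57% of all genes passing. CAPN3 was higher by 0.59 (adjusted p = 0.0279) and the calcium release channel RYR2 by 1.21 (adjusted p = 0.018, both by limma). They passed in 23 of 27 and 23 of 28 alternatives. In TC32 clones against parental TC32 the only gene of these lists with a difference of at least 1 log2 unit upward was FHL2, at 3.17, which did not pass (adjusted p = 0.0600 by limma).

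The gene that fell in TC32 clones was ENO3, the muscle enolase of glycolysis. Its values were -0.70, -0.77 and -1.29 in clones C1, C4 and CP and 0.23, 0.56 and 0.13 in parental TC32, a change of -1.23 (SE 0.20, adjusted p = 0.00444 by limma). The groups did not overlap. In TC71 the ENO3 values were -0.75, -0.14 and -0.85 in clones and 0.00, 0.14 and 0.00 in parental cells. They were lower without overlap, as was so for 35.5% of all genes, with a change of -0.62 that did not pass (adjusted p = 0.195 by limma).

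The gene that rose after 72 h in TC32 was RYR2, the calcium release channel of heart. Its values were 0.19, 0.76 and 1.14 in TC32 after 72 h and -0.09, -1.01 and -0.75 in parental TC32, a change of 1.31 (SE 0.27, adjusted p = 0.0273 by limma). It passed in 23 of 29 alternatives, with a highest adjusted p of 0.167 by limma, and did not with only the groups compared, with the replicate number as a block, or without replicate 2 or 3 of parental TC32 or replicate 2 or 3 of TC32 after 72 h. In TC71 after 72 h the RYR2 change was 0.19 and did not pass (adjusted p = 0.9997 by limma), and the difference between the lines, 1.12, did not pass either (adjusted p = 0.375 by limma). RYR2 in clones stood at a change of 0.92 in TC32 and 1.15 in TC71 against parental cells (adjusted p of 0.0601 and 0.0658 by limma).

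**Figure D5:**
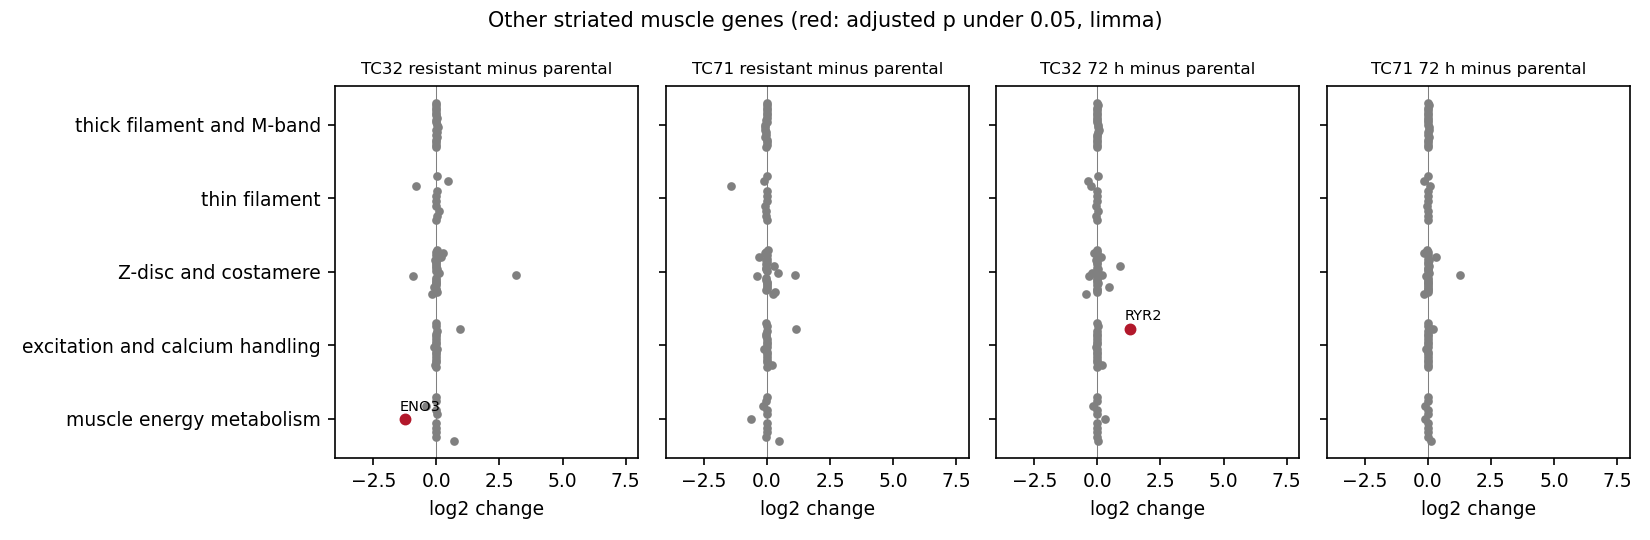
Log2 differences of the 84 measured genes of the 5 other striated muscle lists in clones and after 72 h against parental cells, by line. Most points lie near 0, and the red points passed the test (ENO3 at -1.23 in TC32 clones and RYR2 at 1.31 after 72 h in TC32).

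Of 32 muscle transcription factors and regulators, 26 were measured and 13 were flat. MYOD1 and MYOG, which start skeletal muscle differentiation, ran from -0.023 to 0.032 and from -0.021 to 0.029 over the 18 arrays, and serum response factor (SRF) from -0.13 to 0.19. In TC32 clones against parental TC32, 1 rose and 1 fell. TEAD1, a TEAD factor of the MCAT element, stood at 2.11, 2.22 and 1.30 in clones C1, C4 and CP and at 0.02, -0.10 and -0.83 in parental TC32, a rise of 2.18 (SE 0.38, adjusted p = 0.0059 by limma). EYA1, a coactivator in muscle precursors, fell, with a mean of -2.22 in TC32 clones and 0.44 in parental TC32 (change -2.66, adjusted p = 0.00834 by limma). MEF2C, a myocyte enhancer factor, stood at -0.35, -0.99 and -1.28 in TC32 clones, 1.23, 1.499 and 1.57 after 72 h and -0.19, 0.43 and 0.56 in parental TC32. Clones were lower than after 72 h by 2.30 on the log2 scale (change -2.30, adjusted p = 0.00265 by limma), while neither group passed against parental cells. Against 72 h, TEAD1 also rose in TC32 clones, by 1.65 (adjusted p = 0.0111), and EYA1 and MEF2A, another myocyte enhancer factor, fell, with changes of -2.35 and -0.98 (adjusted p of 0.00713 and 0.00535, all by limma). MRTFB, a coactivator of serum response factor, was higher in TC32 than in TC71 after 72 h by 0.53 (adjusted p = 0.0335 by limma). It passed in 22 of 28 alternatives. None of the 26 passed in TC71 clones or after 72 h against parental cells of either line by limma (at an unadjusted p under 0.05, 1 in TC71 clones, 3 after 72 h in TC32 and 0 after 72 h in TC71).

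Among 11 intermediate filament genes and desmin partners, 1 of them flat, LMNA rose and NEFL fell in TC32 clones against parental TC32. LMNA, the nuclear lamin A/C, had a change of 1.08 (adjusted p = 0.00929), and NEFL, a neurofilament, one of -5.72 (adjusted p = 0.00905, both by limma). Without probe sets ending in _x_at or _s_at the LMNA change was 0.34 and did not pass (adjusted p = 0.413 by limma). Against 72 h, LMNA rose in TC32 clones by 1.11, and NEFL and PRPH, peripherin, fell, with changes of -6.88 and -0.47 (adjusted p of 0.00382, 0.00155 and 0.0416 by limma). PRPH passed in 10 of 28 alternatives. Against parental TC32 its change was 0.014 in clones and 0.48 after 72 h, and neither passed. LMNA against 72 h passed in 27 of 28 alternatives, and did not without probe sets ending in _x_at or _s_at (adjusted p = 0.317 by limma). After 72 h INA, alpha-internexin, rose in TC32, with a mean of 3.32 against -0.68 in parental cells (adjusted p = 0.0151), and NEFM rose by 1.53 in TC71 (adjusted p = 0.000254, both by limma). NEFM was lower in TC71 clones than after 72 h, with a change of -1.56 (adjusted p = 0.000209 by limma). In TC32 against TC71 after 72 h INA was higher by 3.15 and NEFM lower, with a change of -1.54 (adjusted p of 0.0224 and 2.39e-05 by limma). INA passed in 24 of 28 alternatives against parental TC32 and in 22 of 27 against TC71.

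Of 9 smooth muscle contractile genes, 3 of them flat, MYLK, the myosin light chain kinase, rose in TC32 clones, with a mean of 2.64 against -1.83 in parental TC32 (change 4.47, adjusted p = 0.00398 by limma). Its change against 72 h was 4.94 (adjusted p = 0.000775 by limma). ACTA2, smooth muscle actin, rose in TC71 clones, with a mean of 0.47 against -0.62 in parental TC71 (change 1.09, adjusted p = 0.046 by limma), a call that passed in 13 of 28 alternatives.

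Markers of other cell types were mostly flat: 4 of 4 endothelial, 6 of 6 cartilage and bone, 4 of 4 fat, 5 of 6 immune, 4 of 6 neuronal, 3 of 6 epithelial and 1 of 6 fibroblast genes. Against parental cells 1 of these passed, the keratin KRT18, which fell in TC32 clones (change -3.86, adjusted p = 0.00515 by limma), and likewise against 72 h (change -3.31, adjusted p = 0.00526 by limma). The fibroblast gene LUM, the matrix proteoglycan lumican, stood at 0.93, 0.42 and 0.83 in TC32 clones C1, C4 and CP, -2.46, -3.01 and -3.36 in TC32 after 72 h, and 0.48, -2.58 and -5.04 in parental TC32. It was thus low in 5 of the 6 arrays in which TNNT1 and MYOM2 were low. It rose in TC32 clones against 72 h by 3.67 (SE 0.97, adjusted p = 0.0229 by limma), passing in 21 of 27 alternatives, and its change of 3.11 against parental TC32 did not pass (adjusted p = 0.0754 by limma). The fibroblast genes did not move as a set. In TC32 clones against parental TC32, 1 of the 6 was at least 1 log2 unit higher and 2 were at least 1 lower. Of all genes 5.65% differed by as much in either direction. Against 72 h these counts were 2 and 2, with 7.88% of all genes. The part of these markers in the values of TNNT1 and MYOM2 was not tested. Of 11 markers of Ewing sarcoma none was flat, and CCND1, cyclin D1, rose in TC71 clones by 1.16 against parental TC71 and by 1.08 against 72 h (adjusted p of 0.00497 and 0.00395 by limma). In TC32 clones its change against parental cells was 0.59 (adjusted p = 0.0413), passing in 14 of 28 alternatives, and 0.31 without probe sets ending in _x_at or _s_at (adjusted p = 0.348, both by limma). In TC32 clones against 72 h the neuropeptide Y receptor NPY1R rose by 2.23, STEAP1 by 0.82 and the protein kinase PRKCB by 0.46 (adjusted p of 0.00729, 0.0105 and 0.0292 by limma). PRKCB also rose in TC71 clones against 72 h, by 0.59 (adjusted p = 0.0341 by limma). It passed in 21 of 27 alternatives in TC32 and in 20 of 27 in TC71. NPY1R was lower in TC32 than in TC71 after 72 h (change -1.84, adjusted p = 0.0351 by limma), passing in 19 of 27 alternatives. The relative values cannot show whether a marker was present or absent in a line.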

How the data were processed

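RNA from 18 samples of TC32 and TC71 had been hybridised to Affymetrix HGU133A 2.0 arrays and processed in GeneSpring GX 12.1 at its default settings, per the labels' series text. The authors deposited log2 values for 22277 probe sets, each centred on its own median (0 over the 18 arrays). No absolute level remains, and signal over background, which limits precision, is not in them. Left out were 62 control probe sets, 583 assigned to several genes and 1258 assigned to none. The other 20374 gave 12750 genes, as means of each gene's probe sets. Gene symbols were updated by Entrez identifier (1672 changed). Groups were read from the labels.

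One limma model (limma 3.58.1, R 4.3.3) of the 6 group means was fitted to all genes, with residual degrees of freedom of 12 and a prior of 0.827, and p-values were adjusted by Benjamini-Hochberg. "Rose" and "fell" are used of genes past 0.05, except for the untested TC32 differences of the members. The script was tested on simulated data. Members and lists were chosen with earlier results of these data known. Named list genes are those that passed, plus the members' partners and MYOD1, MYOG, SRF and MEF2C. One gene of the lists is not reported here. The members' comparison of TC32 with TC71 after 72 h was planned as a test and is given as a description, since the members were chosen with these values known. Motifs were searched on both strands. Plots used matplotlib 3.10.9.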

Additional observations from a re-analysis of the deposited data

Results flagged for a closer look

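NEFM, the medium neurofilament and a relative of desmin, responded differently to 72 h of the compound in the 2 lines: the difference of the changes (TC32 minus TC71) was -1.535 (adjusted p = 0.00137 by limma, adjusted over all 12750 genes). The change was -0.00024 in TC32 and 1.53 in TC71. Groups of 3 arrays are too small for a test of single outlying arrays.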

How the results depend on the processing

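Of the main counts under settings other than leaving out 1 array, 107 stayed within 1.5 times and 13 did not. Part of the 107 could not have moved, so the tally is no measure of stability. The second deposited table held the same values, and counts at 1 log2 unit do not depend on how the spread was estimated. TNNT1 and MYOM2 also have 1 probe set each, so the choice of probe set could not alter them unless it removed them. Leaving out probe sets ending in _x_at or _s_at removes the only probe sets of TNNT1 and TNNT2. Then 1 member differed by at least 1 log2 unit in each TC32 comparison (clones against parental, clones against 72 h, 72 h against parental). For 72 h against parental TC32 that count was 1 with a further quantile normalization and 0 without both parental arrays that stood apart. Leaving out 1 array at a time, members under the threshold stayed at 0 in the 3 TC71 comparisons. Members at 1 log2 unit stayed at 2 for TC32 clones against parental cells and against 72 h. They ranged from 0 to 2 for 72 h against parental TC32 (0 without replicate 1 of parental TC32, 1 without replicate 1 after 72 h). The correlation of TNNT1 with MYOM2 ranged from 0.917 to 0.964. Leaving out 1 array keeps the split by which both genes were chosen, so this range does not bear on whether they vary together.

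Of the other striated muscle genes, in TC32 clones against parental cells 4 of 32 passed without probe sets of an SD under 0.05, against 1133 of all 9004 genes. Without both parental arrays that stood apart 5 of 84 passed, against 1123 of 12750. Leaving out 1 array, 1 to 4 passed, the 4 without replicate 1 of parental TC32, where 1214 of 12750 genes passed. In TC71 clones 1 of 84 passed with quantile normalization (241 of 12750 genes did) and 1 of 32 without flat probe sets (197 of 9004). Leaving out 1 array, 0 to 3 passed, the 3 without clone C4A (181 of 12750). After 72 h in TC32 0 of 84 passed with only the groups compared, and 0 with the replicate number as a block (replicate block). Of all 12750 genes 171 and 547 passed. Leaving out 1 array, 0 to 3 passed, the 3 without replicate 1 after 72 h (673 of 12750). After 72 h in TC71 1 of 84 passed with the replicate block (447 of 12750 genes did), 0 under every other alternative run, and 0 each time leaving out 1 array. The replicate block gave 0 members in TC71 after 72 h, as without it. That fit uses only the 72 h and parental arrays, of both lines, and called 547 genes in TC32 and 447 in TC71. Without the block, 171 and 290 were called with only the groups compared, and 281 and 19 in the fit of all 18 arrays. Deviations of same-numbered 72 h and parental arrays correlated between 0.0119 and 0.327 in TC32 and between -0.0222 and 0.0391 in TC71, and replicate 2 after 72 h in TC32 correlated best with another number, so the numbers were not taken as pairs. For clones against parental cells, 68 genes passed in TC32 and 0 in TC71 with only the groups compared, against 805 and 139 in the fit of all 18 arrays. ENO3, TEAD1, EYA1, MYLK and NEFL then did not pass in TC32 clones (adjusted p of 0.0957, 0.0945, 0.179, 0.141 and 0.0753 by limma), while KRT18 did (adjusted p = 0.0387 by limma). CCND1 and ACTA2 then did not pass in TC71 clones (adjusted p of 0.229 and 0.295 by limma). The cause of these shifts was not tested. Of 1480 changes that were uncalled or untested, 92 turned sign under an alternative. A filter on mean level could not be run, as the values hold no levels.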
